A study of Mus musculus with 3 samples.

Results

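Bone-forming osteoblasts arise from marrow stromal cells under the control of a small group of transcription factors. Runx2 is needed to enter the lineage, and Sp7 (osterix) acts downstream of it. The homeodomain factors Dlx5 and Msx2 act around them, with Dlx5 generally favouring and Msx2 often restraining late osteoblast genes. Differentiating osteoblasts then raise the enzyme alkaline phosphatase (Alpl), the peptidase Phex and the matrix proteins bone sialoprotein (Ibsp), osteopontin (Spp1) and osteocalcin (Bglap), osteocalcin being the latest of them. The levels of these 9 genes are described in ST2 cells, a stromal line from mouse bone marrow that can form osteoblasts or adipocytes. The 9 genes were chosen by name, for their known roles in bone, and each was found on 1 of the 51826 rows of the deposited expression table.

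The study examined how the secreted glycoprotein NELL2 acts on osteoblast formation and what part fibronectin (Fn1), a matrix protein, plays in it. Every library came from ST2 cells given both a plasmid and an siRNA at 30 nM by lipofection. The plasmid was the empty vector in the control, the NELL2 expression construct for NELL2 overexpression and again the empty vector for Fn1 knockdown. The siRNA was a control siRNA in the first and second of these and Fn1 siRNA in the third. There was 1 library in each group, so no value below has a replicate error, no difference has a test, and each comparison is between libraries. Neither the labels nor the methods state whether these cells had been placed in osteogenic medium before RNA was taken, which Fn1 siRNA was used, or how many cultures went into a library. Transfected pools were used, so fewer cells expressing a gene and less RNA per cell cannot be told apart.

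Values are FPKM, fragment numbers scaled to transcript length and to the mapped total of the library. The depth read from the low values was about 23100000 fragments for the control, 23900000 for NELL2 overexpression and 24300000 for Fn1 knockdown, and between 12220 and 12329 genes reached 1 FPKM. The targeted genes followed their labels. Nell2 was at 0.640 FPKM in the control, 326 FPKM in the NELL2 overexpression and 1.06 FPKM with Fn1 knockdown. Fn1 was at 2802, 2489 and 137 FPKM in the same order. All 14 stromal markers listed for the cell type check reached 1 FPKM, among them Vim at 799 FPKM, Cd44 at 340 FPKM and Cxcl12 at 7.40 FPKM in the control. Muscle markers reached 1 FPKM for 0 of 6 genes, and the pan-leukocyte gene Ptprc was at 0.0331 to 0.0633 FPKM.

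The 9 genes differed widely in level. In the control library Spp1 stood at 2008 FPKM, Msx2 at 83.6 FPKM, Runx2 at 10.8 FPKM, Dlx5 at 4.38 FPKM, Sp7 at 4.13 FPKM and Alpl at 2.39 FPKM. Ibsp at 0.161 FPKM, Phex at 0.124 FPKM and Bglap, listed at 0, lay under 1 FPKM. The same 6 genes were at or above 1 FPKM and the same 3 under it in every library. The lineage factors were thus readily measured in these cells, whereas bone sialoprotein and osteocalcin mRNA were near the limit of detection and osteopontin mRNA was among the most abundant of all.

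**Figure D1:**
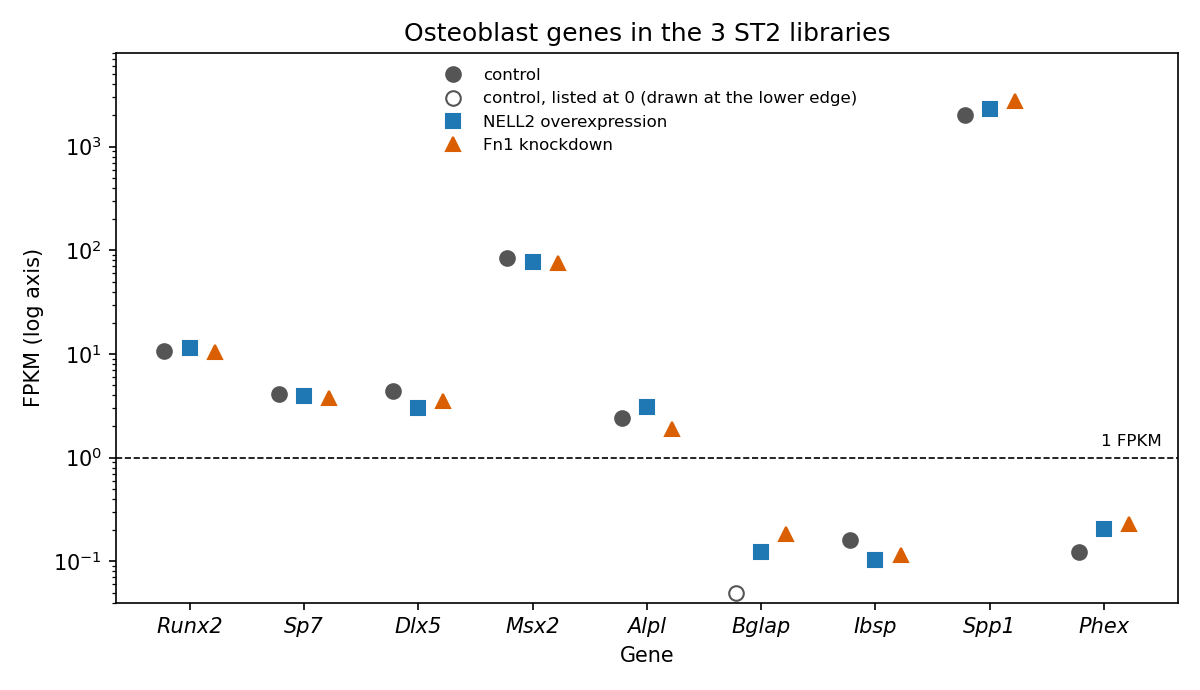
FPKM of the 9 osteoblast genes in the control, with NELL2 and with Fn1 knockdown, on a log axis, with 1 point per library and a marker for a value listed at 0. Spp1 lies at 2008 FPKM or more in each library, and Ibsp, Phex and Bglap lie under 0.3 FPKM.

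Among the transcription factors, Msx2 (ENSMUSG00000021469.9, GRCm38 chromosome 13, 53466884 to 53473074, minus strand) was the most abundant. It ranked 736 of the 22220 genes above 0 in the control and exceeded Runx2 7.75-fold in the control, 6.81-fold in the NELL2 overexpression and 7.34-fold in the Fn1 knockdown library. Its level was 83.6 FPKM in the control, 76.9 FPKM in the NELL2 overexpression and 76.2 FPKM with Fn1 knockdown, so that both other libraries lay slightly below the control. The ratio to control was 0.920 with NELL2 (95% interval 0.883 to 0.959) and 0.912 with Fn1 knockdown (0.876 to 0.951). These intervals, like all those below, were computed from estimated fragment numbers and cover counting error between libraries only. Differences of this size were common at this level, being matched or exceeded by 29.0% of 1405 genes of like FPKM with NELL2 and by 48.6% of 1429 genes with Fn1 knockdown.

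Runx2 (ENSMUSG00000039153.16, chromosome 17, 44495987 to 44814797, minus strand), the runt-domain factor that opens the osteoblast programme, was at 10.8 FPKM in the control, 11.3 FPKM in the NELL2 overexpression and 10.4 FPKM with Fn1 knockdown. The libraries lay close together, at a ratio to control of 1.05 (0.919 to 1.19) with NELL2 and 0.963 (0.843 to 1.10) with Fn1 knockdown. An annotated antisense transcript, Runx2os1, overlaps it on the other strand and was at 0.404 to 0.434 FPKM. Whether the counting used strand is not given in the sources used here, but the antisense row was small beside that of Runx2.

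Sp7 (ENSMUSG00000060284.7, chromosome 15, 102356606 to 102367182, minus strand), the zinc-finger factor that acts after Runx2, was at 4.13 FPKM in the control, 3.91 FPKM in the NELL2 overexpression and 3.72 FPKM with Fn1 knockdown. The control was highest, by a margin within counting error: the ratio to it was 0.946 (0.801 to 1.12) with NELL2 and 0.901 (0.760 to 1.07) with Fn1 knockdown. Runx2 exceeded Sp7 2.61-fold in the control, 2.89-fold in the NELL2 overexpression and 2.79-fold in the Fn1 knockdown library.

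Dlx5 (ENSMUSG00000029755.10, chromosome 6, 6877805 to 6882085, minus strand), a distal-less homeodomain factor of the early lineage, showed the largest distance from the control among these factors. It was at 4.38 FPKM in the control, 3.0 FPKM in the NELL2 overexpression and 3.54 FPKM with Fn1 knockdown. The control was again the highest, and the NELL2 overexpression library the lowest. The ratio to control with NELL2 was 0.686 (0.526 to 0.896), resting on about 139 and 99 estimated fragments, and 6.03% of 3829 genes of like FPKM differed as much. With Fn1 knockdown the ratio was 0.808 (0.624 to 1.04), and 35.1% of 3945 such genes differed as much. Its neighbour Dlx6, of the same gene pair on chromosome 6, was at 1.12, 1.46 and 1.25 FPKM in the control, with NELL2 and with Fn1 knockdown and thus was lowest in the control. The Dlx6 differences from the control were 0.21 and 0.09 in log2(FPKM + 1), and no counting interval was computed for it.

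Alpl (ENSMUSG00000028766.10, chromosome 4, 137741733 to 137796384, minus strand) encodes tissue-nonspecific alkaline phosphatase, which splits pyrophosphate, an inhibitor of mineral, and is a classical early marker of osteoblast commitment. Its level was 2.39 FPKM in the control, 3.06 FPKM in the NELL2 overexpression and 1.87 FPKM with Fn1 knockdown. NELL2 overexpression was highest and Fn1 knockdown lowest, with the control between them. Fn1 knockdown stood at 0.611 of the NELL2 overexpression level (0.390 to 0.953), a difference of -0.50 in log2(FPKM + 1) that became -0.68 with a pseudocount of 0.1 and -0.23 with a pseudocount of 5, and 10.1% of 3290 genes of like FPKM differed as much. The ratio to control was 1.28 (0.847 to 1.97) with NELL2 and 0.783 (0.490 to 1.27) with Fn1 knockdown. The intervals depend on the transcript length assumed. The median coding transcript gave about 42, 56 and 35 fragments in the control, with NELL2 and with Fn1 knockdown, and the longest transcript gave 139, 184 and 115, with which the interval against the control became 1.02 to 1.60 for NELL2 and 0.607 to 1.01 for Fn1 knockdown.

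Phex (ENSMUSG00000057457.11, chromosome X, 157162075 to 157415312, minus strand), a membrane endopeptidase of osteoblasts and osteocytes whose loss causes phosphate wasting and poor mineralisation, was at 0.124 FPKM in the control, 0.205 FPKM in the NELL2 overexpression and 0.228 FPKM with Fn1 knockdown. The control was lowest, but the values stood on only about 10, 18 and 20 estimated fragments. Counting error gave the ratio to control an interval of 0.761 to 4.21 with NELL2 and 0.847 to 4.54 with Fn1 knockdown, so a difference was not detectable at this depth with the median coding length. With the longest transcript the latter interval was 1.02 to 3.46.

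Among the matrix proteins, Spp1 (ENSMUSG00000029304.14, chromosome 5, 104435118 to 104441050, plus strand), which encodes osteopontin, an acidic phosphoprotein that binds integrins and mineral and is also made by many cells outside bone, ranked 15 of all genes in the control. Its level was 2008 FPKM in the control, 2283 FPKM in the NELL2 overexpression and 2727 FPKM with Fn1 knockdown. The control was lowest and the Fn1 knockdown library highest, and Spp1 made up 0.504%, 0.573% and 0.688% of all FPKM in the same order. The ratio to control was 1.14 (1.13 to 1.15) with NELL2 and 1.36 (1.34 to 1.37) with Fn1 knockdown, and that of Fn1 knockdown to NELL2 overexpression was 1.19 (1.18 to 1.21). The narrow intervals reflect some 65269 to 93507 estimated fragments and say nothing of the spread between cultures. Only 24 to 28 genes of like FPKM were available against the control, of which 32.1% differed as much with NELL2 and 12.5% with Fn1 knockdown. Both sets count Spp1 itself, and the set for Fn1 knockdown also counts the targeted gene Fn1. These shares therefore cannot show how common such a difference is at this level. The annotated gene Gm42793 overlaps Spp1 on the same strand and was at 1.95, 2.43 and 2.70 FPKM, and reads of the 2 genes could have been divided between them.

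Ibsp (ENSMUSG00000029306.8, chromosome 5, 104299171 to 104311469, plus strand) encodes bone sialoprotein, an integrin-binding nucleator of mineral that is far more restricted to mineralising tissue than osteopontin. It was at 0.161 FPKM in the control, 0.102 FPKM in the NELL2 overexpression and 0.115 FPKM with Fn1 knockdown, from about 8, 5 and 6 estimated fragments. The ratio to control had an interval of 0.155 to 2.09 with NELL2 and 0.203 to 2.34 with Fn1 knockdown, so neither direction could be told at this depth. Ibsp and Spp1 belong to 1 block of 5 related genes for acidic phosphoproteins of bone and tooth, which covers 270 kb of chromosome 5 (104170712 to 104441050). Of this block Spp1 alone was abundant. Dspp and Mepe were listed at 0 in each library and Dmp1 was at 0.0158 to 0.0449 FPKM, while Spp1 exceeded Ibsp 12461-fold in the control, 22402-fold in the NELL2 overexpression and 23743-fold in the Fn1 knockdown library, ratios that rest on the few Ibsp fragments.

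Bglap (ENSMUSG00000074483.2, chromosome 3, 88383501 to 88384464, minus strand) encodes osteocalcin, the vitamin K-dependent protein of mature osteoblasts. It was listed at 0 in the control, at 0.123 FPKM in the NELL2 overexpression and at 0.182 FPKM with Fn1 knockdown. These levels correspond to about 0, 1 and 2 fragments. A count of 0 in the control allows up to 0.296 FPKM, the value of 3 fragments (a one-sided limit, where the 95% interval reaches 0.364 FPKM), and the corresponding limits of 0.286 and 0.280 FPKM in the other libraries lie above their values, so no ratio is given. Osteocalcin also has near copies beside it, and reads could have been divided among them. Of the 31-base stretches of the Bglap transcript, 80.5% also occur in Bglap2 (chromosome 3, 88377736 to 88378699) and 38.0% in Bglap3 (88368616 to 88372743). Of its 150-base stretches, the length of a read, 31.6% occur in Bglap2 and 0 in Bglap3. Summed over the 3 genes, osteocalcin mRNA was at 0.276 FPKM in the control, 0.346 FPKM in the NELL2 overexpression and 0.564 FPKM with Fn1 knockdown, so the rows together also stayed under 1 FPKM.

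The upstream windows of Bglap and of 1 of the 2 start sites of Spp1, the least and the most abundant of these genes in the control, hold the core motif bound by RUNX factors, and their sequences are shown for that reason. The motif searched was ACCACA, on both strands, in the 250 bases before each RefSeq start site (GRCm38.p6), where windows were at hand for 7 of the 9 genes. The longer form AACCACA contains it. Of 32851 windows in the table, 14.0% hold ACCACA and 4.4% hold AACCACA. The lines give the strand of the gene, 5′ to 3′, ending at the base before the start site, with ACCACA in capitals. The Bglap window is chr3:88384467-88384716 on the minus strand and the Spp1 window, that of the first of its start sites, is chr5:104434861-104435110 on the plus strand. Neither overlaps an exon annotated in GENCODE M21.
Bglap: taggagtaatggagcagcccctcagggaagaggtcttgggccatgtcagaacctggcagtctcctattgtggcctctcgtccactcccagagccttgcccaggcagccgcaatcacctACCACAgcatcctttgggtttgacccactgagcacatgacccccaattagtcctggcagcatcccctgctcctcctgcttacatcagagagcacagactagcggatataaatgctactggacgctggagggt
Spp1: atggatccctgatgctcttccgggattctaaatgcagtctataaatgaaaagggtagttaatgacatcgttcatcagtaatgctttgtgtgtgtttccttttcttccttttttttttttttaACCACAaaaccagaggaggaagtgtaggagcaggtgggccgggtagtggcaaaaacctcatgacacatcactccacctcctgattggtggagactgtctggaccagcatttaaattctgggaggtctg
The Bglap match lies at -132 to -127 and the Spp1 match at -128 to -123, counted from the base before the start site as -1, and the Spp1 match alone is of the longer form. The Runx2 window also holds the longer form once, with ACCACA at -80 to -75, but GENCODE M21 starts Runx2 farther upstream than RefSeq, and the match lies inside the gene as annotated there. No ACCACA was found in the windows of Ibsp, Msx2, Alpl or Phex, nor in that of the other Spp1 start site (chr5:104435942-104436191). The windows of Ibsp, Msx2 and Phex and this Spp1 window also overlap exons of GENCODE M21. A match describes the letters of a window and not a bound site.

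**Figure D2:**
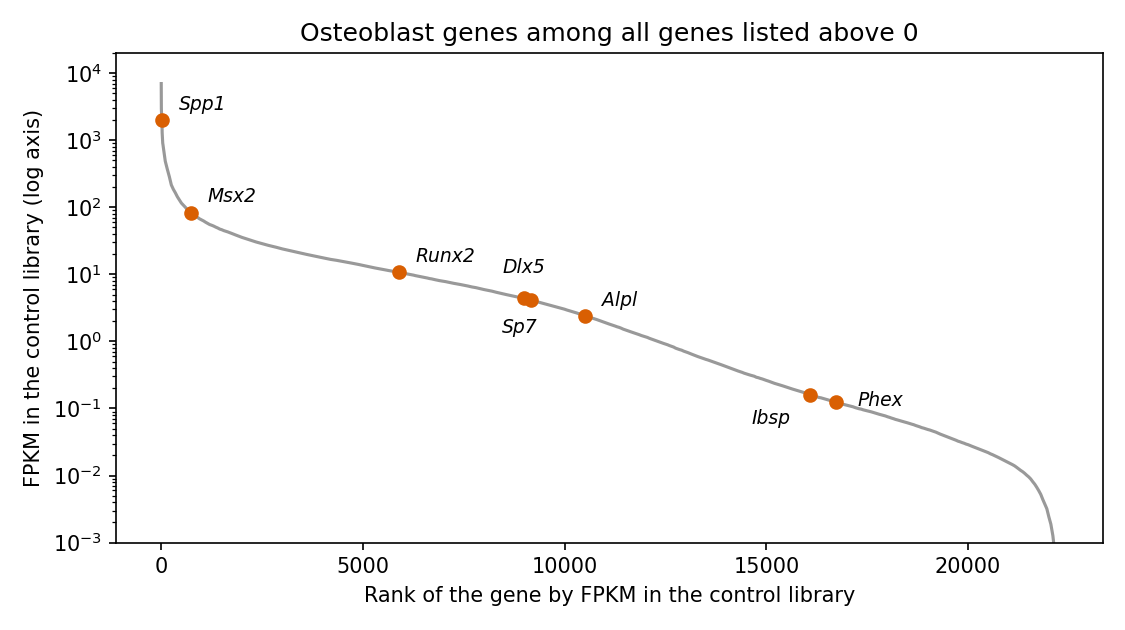
FPKM in the control library (log axis) against rank by FPKM for all genes above 0 (line), with 8 of the osteoblast genes as points. Spp1 ranks 15 and Msx2 736, Runx2, Dlx5, Sp7 and Alpl lie between rank 5886 and rank 10515, and Bglap, listed at 0, has no point.

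Genes were called at a difference of at least 1 in log2(FPKM + 1), which is 2-fold on that scale, if either library reached 1 FPKM. With NELL2 overexpression 0 of the 6 osteoblast genes at 1 FPKM were called, where 0.652% of all 12572 genes were called. Of the 6, Runx2, Alpl and Spp1 were higher and Sp7, Dlx5 and Msx2 lower than in the control. Their differences ran from -0.43 for Dlx5 to 0.26 for Alpl, with a median of -0.0010 beside 0.0072 over all genes. With so few calls in the whole table, 0 of 6 is near the background.

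With Fn1 knockdown 0 of 6 were called, where 1.23% of all 12574 genes were. Spp1 was higher than in the control, by 0.44, and the other 5 were lower, with Dlx5 at -0.25, Alpl at -0.24, Msx2 at -0.13, Sp7 at -0.12 and Runx2 at -0.05. Dlx5 and Alpl changed places with a pseudocount of 0.1, at -0.30 and -0.34. The median was -0.13 beside -0.0028 over all genes, of which 49.5% were higher. Both comparisons use the same control library, so a value that is high or low in it moves both. Dlx5, Sp7 and Msx2 were lower than the control in each of them and Spp1 higher.

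Fn1 knockdown set directly against NELL2 overexpression, which leaves the control out, likewise gave 0 of 6 called beside 1.29% of all 12596 genes. Spp1 at 0.26 and Dlx5 at 0.18 were higher with Fn1 knockdown, and Msx2 at -0.01, Sp7 at -0.05, Runx2 at -0.11 and Alpl at -0.50 were lower. Under a 1.5-fold rule 0 of the 6 were again called in this comparison, beside 6.4% of all genes, and 0 of 6 with Fn1 knockdown against control, beside 6.24%. With a pseudocount of 0.1 and the 2-fold rule 0 of 6 were called in the direct comparison, beside 2.8% of all genes. The order of these sizes depends on the pseudocount: with one of 5, Spp1 at 0.26 lay farther apart than Alpl at -0.23. Ibsp, Phex and Bglap did not reach 1 FPKM and entered none of these counts.

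**Figure D3:**
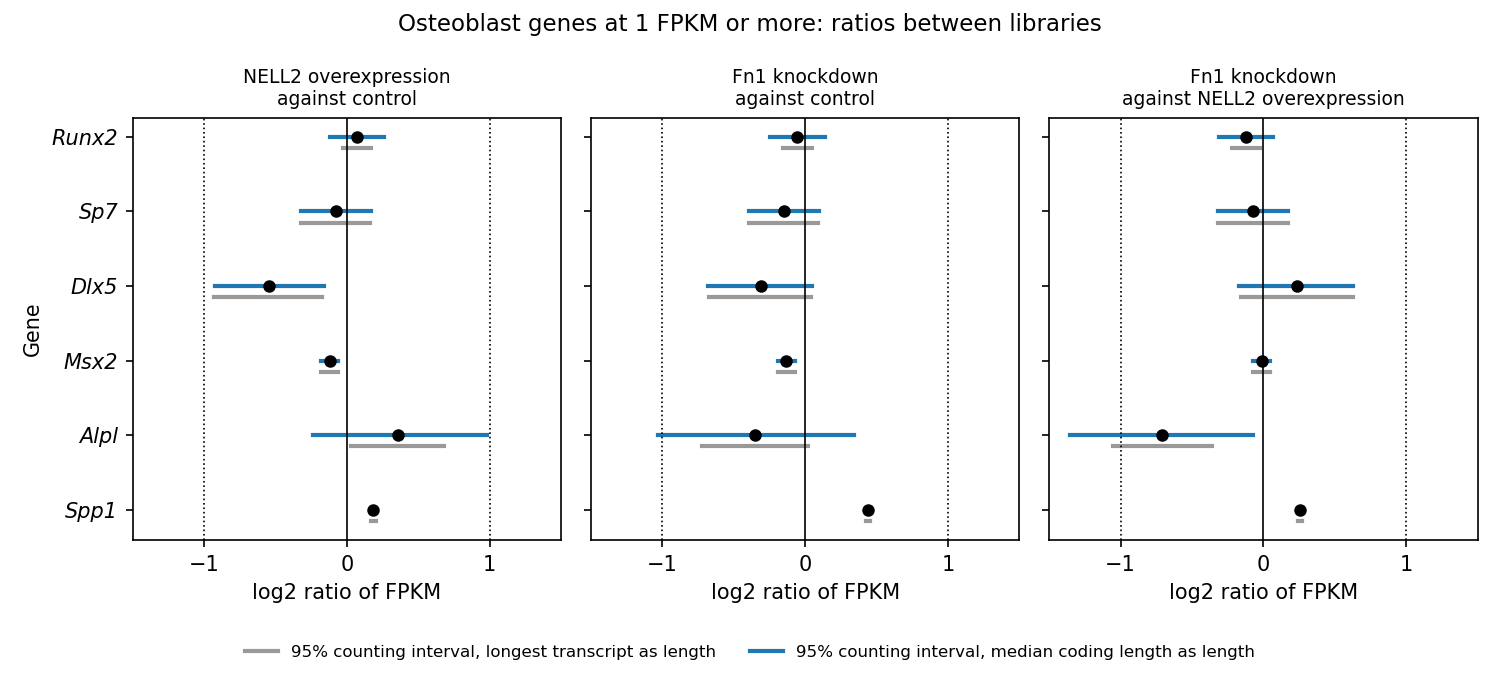
Ratio of FPKM (log2 axis) for the 6 osteoblast genes at 1 FPKM or more in the 3 comparisons. Dots are the ratios, bars are 95% intervals for counting error with the median coding length (blue) or the longest transcript (grey), and dotted lines mark 2-fold. Every dot lies inside the dotted lines, and the bars for Spp1 with the median coding length are narrower than its dot.

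The wider programme was read from lists of other genes known for the same roles. Of 32 further regulators of the lineage, 27 reached 1 FPKM, and 0 were called in each comparison. Over all genes 0.652% were called with NELL2 overexpression, 1.23% with Fn1 knockdown and 1.29% in the direct comparison. A count of 0 is near this background. With NELL2 overexpression 16 were higher and 11 lower (median 0.04), and with Fn1 knockdown 15 were higher and 12 lower (median 0.02). Of all genes 52.3% were higher with NELL2 overexpression and 49.5% with Fn1 knockdown. Atf4, a partner of Runx2 in late osteoblast gene expression, was the most abundant at 110, 112 and 111 FPKM in the control, with NELL2 and with Fn1 knockdown. Twist2, which restrains Runx2, had the largest positive difference with NELL2 overexpression (0.42), at 24.5, 33.1 and 27.2 FPKM in that order. The largest negative differences were those of Ets1 with NELL2 overexpression (-0.36), at 14.3, 10.9 and 12.1 FPKM, and of the mesenchymal repressor Snai2 with Fn1 knockdown (-0.61), at 26.1, 24.4 and 16.8 FPKM.

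Of 26 other bone matrix genes 20 reached 1 FPKM, and 0 were called in each comparison. This is near the shares of all genes, 0.652% with NELL2 overexpression, 1.23% with Fn1 knockdown and 1.29% in the direct comparison. With NELL2 overexpression 13 were higher and 7 lower (median 0.06), and with Fn1 knockdown 9 were higher and 11 lower (median -0.07). Unlike Ibsp and Bglap, the general matrix genes were abundant. Osteonectin (Sparc) was at 2317, 2439 and 2079 FPKM and the main collagen chain of bone, Col1a1, at 1494, 1601 and 1352 FPKM in the control, with NELL2 and with Fn1 knockdown. With Fn1 knockdown the positive end of the list was held by the matricellular genes Thbs1 (0.60), at 2177, 2237 and 3302 FPKM, and Tnc (0.52), at 278, 291 and 398 FPKM. The negative end was held by fibromodulin (Fmod, -0.56), lumican (Lum, -0.48) and biglycan (Bgn, -0.46), which are small leucine-rich proteoglycans. Other members of that family differed in direction, with osteoglycin (Ogn) at 0.37 and osteomodulin (Omd) at 0.19. Decorin (Dcn), also of the family, was at 57.8 FPKM in the control, 71.7 FPKM in the NELL2 overexpression and 50.5 FPKM with Fn1 knockdown.

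Among 16 genes for mineralisation on single rows, 14 reached 1 FPKM. None was called with NELL2 overexpression (6 higher, 8 lower, median -0.02), and 1 was called with Fn1 knockdown (9 higher, 5 lower, median 0.08), where 0.652% and 1.23% of all genes were called. This was Nt5e (CD73), an ectoenzyme that releases phosphate from AMP, which is also among the stromal markers and rose by 1.81 on the log2(FPKM + 1) scale. It was at 2.17 FPKM in the control, 2.47 FPKM in the NELL2 overexpression and 10.1 FPKM with Fn1 knockdown, and it was also called in the direct comparison (1.68), as were 1.29% of all genes. Next after Nt5e was Galnt3, a glycosyltransferase that protects Fgf23 from cleavage, at 2.49, 2.16 and 4.55 FPKM (0.67 with Fn1 knockdown), followed by Entpd5 (0.48). Phospho1, the phosphatase of matrix vesicles, was at 6.62, 6.24 and 4.78 FPKM in that order (-0.40 with Fn1 knockdown). The mineralisation inhibitor Mgp was at 138, 143 and 183 FPKM (0.41).

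Of 16 other osteoblast markers 12 reached 1 FPKM, and 0 were called in each comparison. The shares over all genes were also low, 0.652% with NELL2 overexpression, 1.23% with Fn1 knockdown and 1.29% in the direct comparison, so 0 is near them. With NELL2 overexpression 8 were higher and 4 lower (median 0.07), and with Fn1 knockdown 4 were higher and 8 lower (median -0.07). Tmem119, a membrane protein that promotes osteoblast formation, was at 19.6 FPKM in the control, 23.8 FPKM in the NELL2 overexpression and 15.4 FPKM with Fn1 knockdown, the same order as Alpl. Tnfrsf11b (osteoprotegerin), the decoy receptor that limits osteoclast formation, was at 79.4 FPKM in the control and 120 FPKM with Fn1 knockdown (0.59). Of 13 osteocyte genes 8 reached 1 FPKM in any library and 0 were called, again near the 0.652%, 1.23% and 1.29% of all genes. With NELL2 overexpression 5 were higher and 2 lower (median 0.07), and with Fn1 knockdown 7 were higher and 1 lower (median 0.08). The most abundant were Cd44 and Pdpn, which stromal cells also express, whereas the osteocyte product Sost was listed at 0 in each library and Fgf23 did not exceed 0.0228 FPKM.

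**Figure D4:**
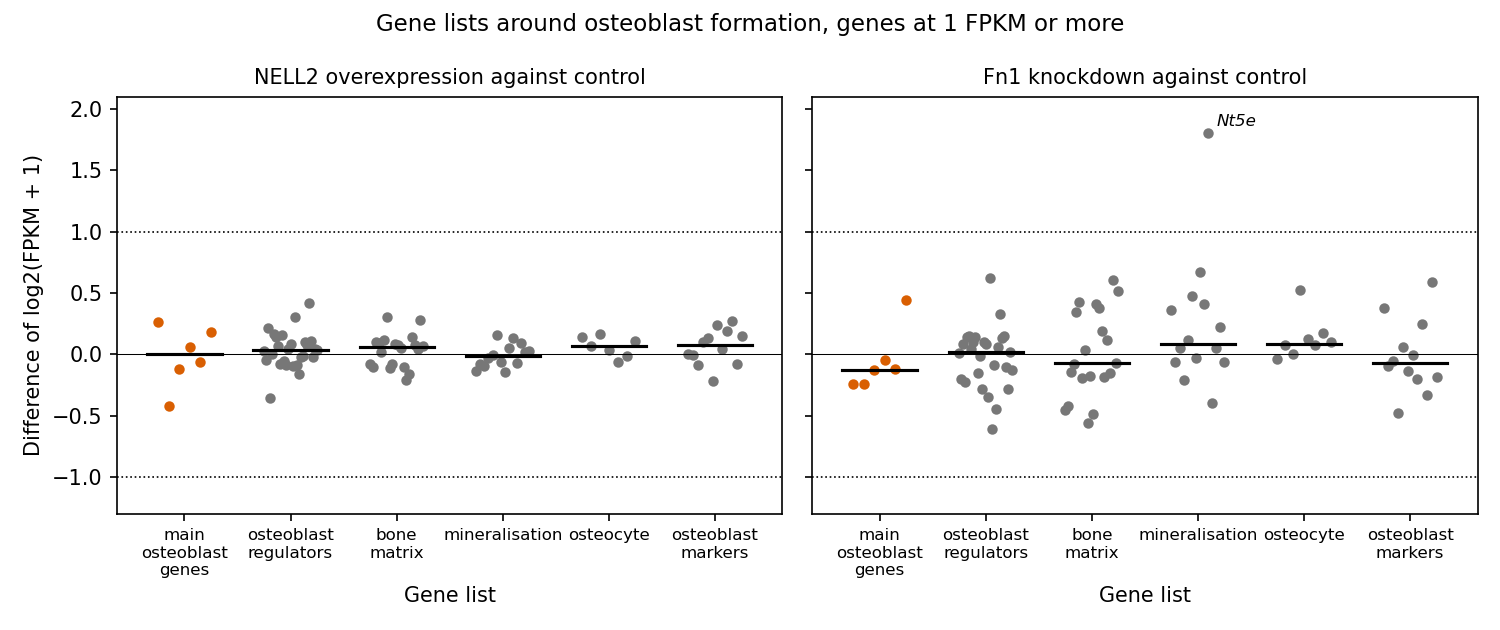
Difference of log2(FPKM + 1) from the control for the main osteoblast genes and the 5 surrounding lists, 1 point per gene at 1 FPKM or more, with NELL2 overexpression and Fn1 knockdown in separate panels, bars for the median of each list and dotted lines at 2-fold. Nt5e, at 1.81 with Fn1 knockdown, is the point beyond the 2-fold line.

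Markers of other lineages and cell types were measured beside these genes. The cartilage collagen Col2a1 was at 300 FPKM in the control, 287 FPKM in the NELL2 overexpression and 602 FPKM with Fn1 knockdown. Its rise of 1.003 with Fn1 knockdown was called, just above the threshold of 1, as were 1.23% of all genes. Of 7 chondrocyte markers 6 reached 1 FPKM, and with Fn1 knockdown 5 of them were higher and 1 lower than in the control (median 0.19). The summed level of the list, most of it Col2a1, was 339, 324 and 645 FPKM in the same order. Col10a1, of hypertrophic cartilage, was at 1.02, 0.978 and 2.17 FPKM (0.65), and Sox9, the cartilage master factor and the lower one of the 6, was at 13.4, 11.9 and 12.6 FPKM. Of 8 adipocyte markers 4 reached 1 FPKM, the sums over all 8 were 7.07, 6.85 and 7.84 FPKM, and Adipoq did not exceed 0.188 FPKM. Of 5 blood markers only Cd68 reached 1 FPKM, at 4.08, 3.54 and 1.57 FPKM. Of 6 osteoclast markers Ctsk, which stromal cells also express, and Acp5 reached 1 FPKM, and Calcr and Dcstamp were listed at 0. Of 5 endothelial markers Kdr alone did, at 0.812 to 1.33 FPKM. Col2a1 and Cd68 differed most from the control with Fn1 knockdown, and their part in the values of the osteoblast genes was not tested.

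For each osteoblast gene at 1 FPKM, the listed gene with the most similar pair of differences from the control was found among 80 genes, by Euclidean distance. With 3 libraries this is a likeness of 2 numbers only. Runx2 lay nearest to the phosphate exporter Xpr1 (distance 0.0358), Sp7 to Anxa2 (0.0541), Dlx5 to Ets1 (0.0674), Msx2 to Sox9 (0.0600), Alpl to Dcn (0.0663) and Spp1 to the nucleotidase Entpd5 (0.0436), which was at 4.12, 4.71 and 6.12 FPKM in the control, with NELL2 and with Fn1 knockdown. Alpl and Dcn were both highest with NELL2 overexpression and lowest with Fn1 knockdown, and Spp1 and Entpd5 both lowest in the control and highest with Fn1 knockdown.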

How the data were processed

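Polyadenylated RNA of ST2 cells was sequenced (MGISEQ-2000, 150-base paired reads), and the authors mapped reads with HISAT2. The submitters' processing notes name GRCm38 and DESeq. The program that made FPKM, its annotation and its use of strand are not given in the sources used here. FPKM per gene were used as deposited by the authors. Gene names were matched to GENCODE M21 (GRCm38), whose coordinates are given.

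Differences were taken as log2(FPKM + 1), which understates changes of low genes, with a filter of 1 FPKM in either library and a 2-fold rule. No test was run, with 1 library per group. Depth was read from the most frequent low value of FPKM times length among single-transcript genes. Of 27614 such genes, only those of 600 bases or more and above 0 FPKM were used. Fragments were estimated from it with the median coding length. Whole reads were not recovered, so they are approximate. Ratio intervals are exact (Clopper-Pearson, 95%). Genes of like FPKM had a mean level within 2-fold of the gene's own, and the gene itself was counted among them. The 187 rows with a repeated name were left out of the lists. Genes named were the targeted genes, the 9 genes and, from the lists, called genes, the highest and the extremes, some of which are not reported here. The 9 genes and the lists were chosen with earlier results of these data known. Alternatives were other pseudocounts, scalings, filters, a 1.5-fold rule and other lengths. Scripts (Python 3.11.15, pandas 2.3.3, NumPy 2.4.6, SciPy 1.17.1) were tested on simulated data.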

Additional observations from a re-analysis of the deposited data

How the results depend on the processing

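The count of called osteoblast genes was 0 in each comparison under each of the 7 alternatives run for it, and no difference of these genes changed direction. Their size moved with the pseudocount: with 0.1 in place of 1, the difference with NELL2 overexpression went from 0.17 to 1.16 for Bglap and from 0.10 to 0.44 for Phex, both under 1 FPKM, and with 5 that of Dlx5 went from -0.43 to -0.23. The counts over all genes moved more. With NELL2 overexpression against control 82 genes were called, and 178 with a pseudocount of 0.1, 26 with a pseudocount of 5, 210 with TPM scaling, 47 with a filter of 5 FPKM and 325 with a 1.5-fold rule. With Fn1 knockdown against control 155 were called, and 358, 50, 343 and 784 under the same changes, the filter of 5 FPKM aside. For Fn1 knockdown against NELL2 overexpression 162 were called, and 353, 46, 373 and 806. Under the 1.5-fold rule Fn1 knockdown against control called 2 of 27 regulators, 1 of 20 bone matrix genes, 2 of 14 mineralisation genes and 1 of 12 osteoblast markers, beside 6.24% of all genes. Set against NELL2 overexpression, it called 2 of 14 mineralisation genes and 2 of 11 osteoblast markers, beside 6.4% of all genes, and with a pseudocount of 0.1 it called 2 of 14 mineralisation genes, beside 2.8% of all genes. Estimated fragments moved for 11 of 27 values with the longest transcript, those of Runx2, Alpl, Spp1 and Phex. No paired analysis was possible because there was 1 library per group, and no replicate could be left out. Depth limits Bglap, Ibsp and Phex, at 20 or fewer estimated fragments with the median coding length (Phex at 18, 31 and 35 with the longest transcript).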
